A study of Mus musculus with 8 samples.

Results

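Fibrillar and other collagens, the proteins that crosslink and degrade them, and markers of hepatic stellate cells were followed in mouse liver across 20 weeks of high-fat diet with and without the macrophage protein AIM. The 35 genes were picked by name, as a list of collagens, other matrix proteins, crosslinking enzymes, matrix proteases and their inhibitors, growth factors with their receptors, and stellate cell markers, without use of measured values. The array held probes for all 35 of them, out of 27597 genes in all, and 34 passed a filter that asked for a probe marked by the scanner as well above background on 2 or more of the 8 arrays. Fbn1, the gene of the microfibril protein fibrillin-1, did not pass, as neither of its probes was well above background on any array.

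Hepatic stellate cells lie between hepatocytes and the sinusoidal endothelium and store vitamin A as retinyl esters. When the liver is injured they turn into contractile myofibroblasts that secrete collagens I and III, a change driven by TGF-beta and by platelet-derived growth factor. Collagen is laid down when its synthesis and crosslinking outpace its removal by matrix metalloproteinases, which tissue inhibitors of metalloproteinases (TIMPs) hold in check.

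RNA came from whole livers of C57Bl/6 mice, either AIM+/+ (wild type) or AIM-/- (knockout). AIM is a protein secreted by tissue macrophages and is encoded by Cd5l. Mice of each genotype had normal chow, given here as 0 weeks, or were on a high-fat diet through week 6, 12 or 20, and 1 one-colour array was hybridised per genotype and time. No group has a replicate, whether an array holds 1 animal or a pool is not given in the sources used here, and chow was sampled at 1 time only, so age and diet cannot be told apart. The genotypes lay on different slides, which cannot be told apart from genotype. On both slides the position of an array followed its time, so position and time cannot be told apart either. In whole tissue, a change in the number of cells of a type and a change in RNA per cell cannot be told apart either.

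The probes well above background numbered 18586 to 21119 per array, out of 41174. The number of arrays, 8, limits the precision. The Cd5l signal, scaled as described below, lay between 11792 and 30606 on the wild-type arrays and between 90.9 and 173 on the knockout arrays. Hepatocyte genes such as Alb (albumin), between 320770 and 438180, were well above background on every array, and 13 of 15 stellate cell markers were too. The exceptions were Hand2, a stellate cell transcription factor, on 4 arrays and the filament protein gene Gfap on none. Both 20-week arrays stood apart from the other 6. Xist, the RNA of the silenced X chromosome, gave 805 and 764 there, and Ddx3y, a gene of the Y chromosome, was at background there and between 1034 and 1683 on the others. The knockout array at 6 weeks also had an Xist signal well above background, 155, as did the wild-type array at 12 weeks, 67.0. The sex of the animals cannot be told apart from the 20th week. The diet and genotype summaries below, and the diet values of some members, are therefore also given without that pair.

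Levels are given as scaled signals, the scanner's processed signal brought to a common 75th percentile of 284.2 on each array. They compare 1 probe across arrays and not 1 gene with another. Signals of a genotype are listed for chow, 6, 12 and 20 weeks in that order. Differences are on the log2 scale with the standard error (SE) of a limma model in which the genotypes stand in for replicates of a week and the weeks for replicates of a genotype. Animals of 1 group are therefore no part of these p-values, which rest on how the 8 arrays scatter.

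Most members were lowest on chow or at 6 weeks and highest at 12 or 20 weeks. The wild-type array at 6 weeks was the lowest of all for 13 of 34 members, against 8.87% of the 14986 genes tested, and the knockout array on chow for 11, against 16.1%. The wild-type array at 20 weeks was the highest for 17 members, against 10.2% of all genes, and the knockout array at 12 weeks for 13, against 15.4%. Both 12-week arrays lay above both chow arrays for 29 members (28.4% of all genes), and both 20-week arrays did so for 29 as well (28.9%). Only Lrat, Bgn and Fn1 had both 6-week arrays above both chow arrays, 3 members of 34 against 21.4% of all genes. Both chow arrays lay below all 6 diet arrays for 2 members, Lrat and Bgn (10.6% of all genes), and above all 6 for none (also 10.6%). These orders were counted after the values had been seen.

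Against chow, the mean of the 3 diet times was higher for 32 of 34 members, with a median log2 difference of 0.63 against -0.02 over all genes. With the 6 members that were not well above background on either chow array set to their bounds, the median was 0.52 and 29 differences were positive. Past the adjusted p of 0.05 were 2 members, where 2.57% of all genes passed. The stellate cell gene Lrat was well above background on all 8 arrays. The collagenase gene Mmp13 entered the test through its 12-week and 20-week arrays alone, and its other signals are background, so its p compares those arrays with background values. At an unadjusted p under 0.05 there were 18 members, against 25.3% of all genes. Neither Mmp13 nor Lrat passed when any 1 of the 8 arrays was left out. Without the 20-week pair no gene on the array passed, 9 members had an unadjusted p under 0.05 (19.2% of all genes), 30 differences were positive and the median was 0.40. Without the 6-week pair 8 members passed (3.91% of all genes), and without the 12-week pair none did (0.04%). In a fit of the genes well above background on all 8 arrays, 6 of 24 members passed, against 7.32% of those genes, and 23 differences were positive with a median of 0.55.

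**Figure D1:**
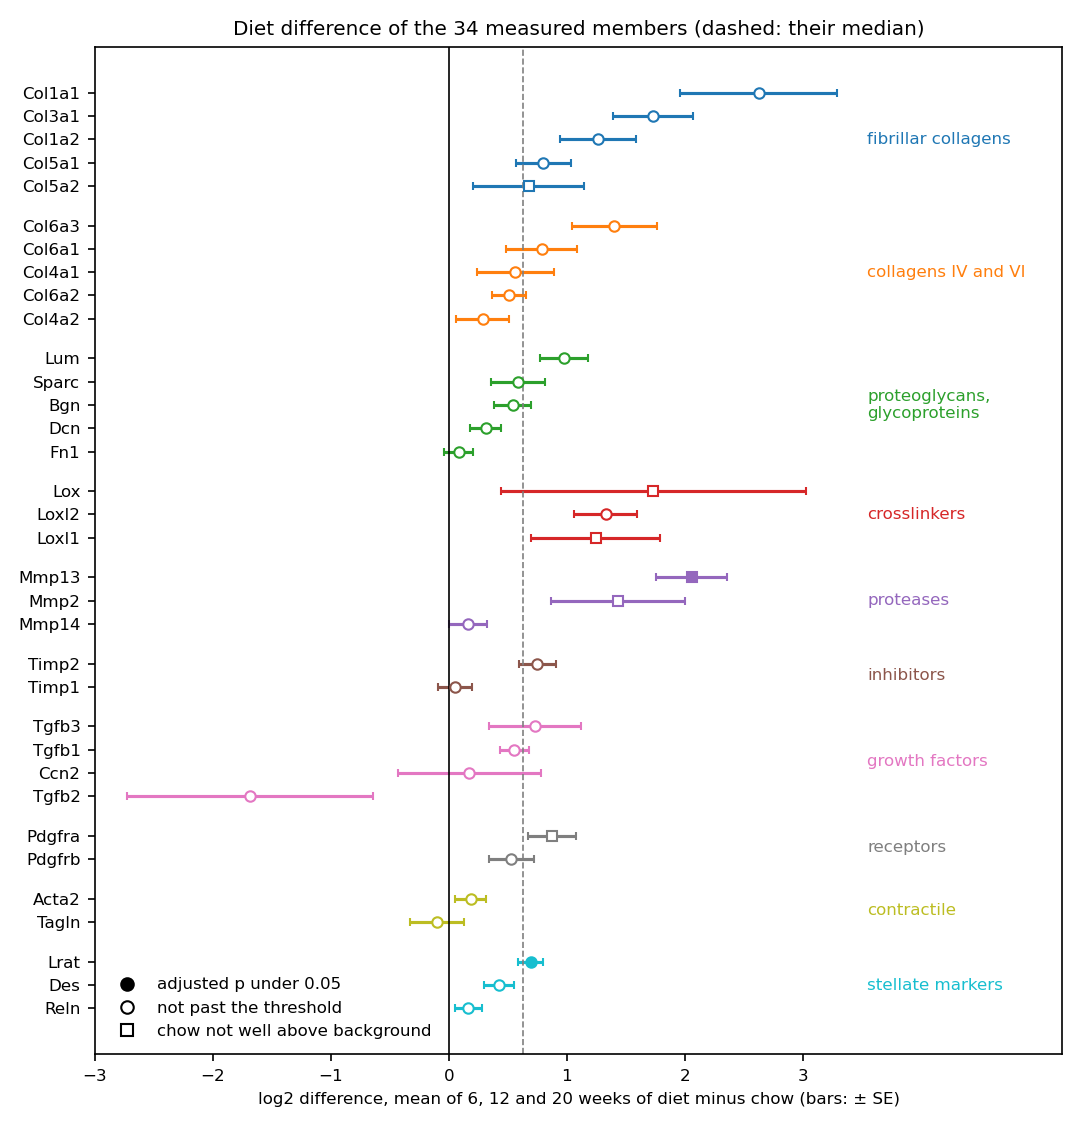
The log2 difference between the mean of 6, 12 and 20 weeks of diet and chow is plotted for each of the 34 measured members, grouped by role, with bars of 1 SE from the limma fit over 8 arrays. Filled marks passed the adjusted p of 0.05, squares mark members that were not well above background on either chow array, and the dashed line is the members' median of 0.63. All but Tgfb2 and Tagln lie to the right of 0.

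The fibrillar collagens, which form the tensile fibres of scar tissue, had 5 of 5 positive diet differences with a median of 1.26. That of Col5a2 rests on background values on chow, and its log2 bound was -0.46, so its direction is not shown. Collagen I is built from the chains of Col1a1 and Col1a2, and collagen III from that of Col3a1. Col1a1 signals were 62.9, 42.9, 723 and 871 in the wild type and 66.0, 290.4, 902 and 561 in the knockout. Col1a2 gave 899.9, 646, 2735 and 3040.0 in the wild type and 613, 1174, 2643 and 1932 in the knockout. For Col3a1 they were 375, 343, 1849 and 1533 in the wild type and 311, 810.1, 2269 and 1201 in the knockout. In all of them the 4 arrays at 12 and 20 weeks lay above the 4 arrays at chow and 6 weeks, and the knockout array at 6 weeks lay between the chow arrays and the later ones.

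None of the fibrillar collagens passed the threshold for diet. The log2 differences were 2.63 (SE 0.67, adjusted p = 0.0998) for Col1a1, 1.73 (SE 0.34, adjusted p = 0.0678) for Col3a1 and 1.26 (SE 0.32, adjusted p = 0.101) for Col1a2. Col5a1, a chain of collagen V that sets fibre diameter, ranged from 87.2 to 304 with a difference of 0.80 (SE 0.23). Its partner chain Col5a2 was well above background on 3 arrays, both at 20 weeks and the wild type at 12 weeks, and ranged from 7.3 to 38.4. Of the 2 other Col1a1 probes, 1 was well above background on the 4 arrays at 12 and 20 weeks, at 65.1 to 103, and on none of the others, and 1 was at background on all 8. The Col1a1 probe used lies on chromosome 11 at 94767851 to 94767910 and that of Col3a1 on chromosome 1 at 45293290 to 45293349 (mm8, as are all probe positions below).

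**Figure D2:**
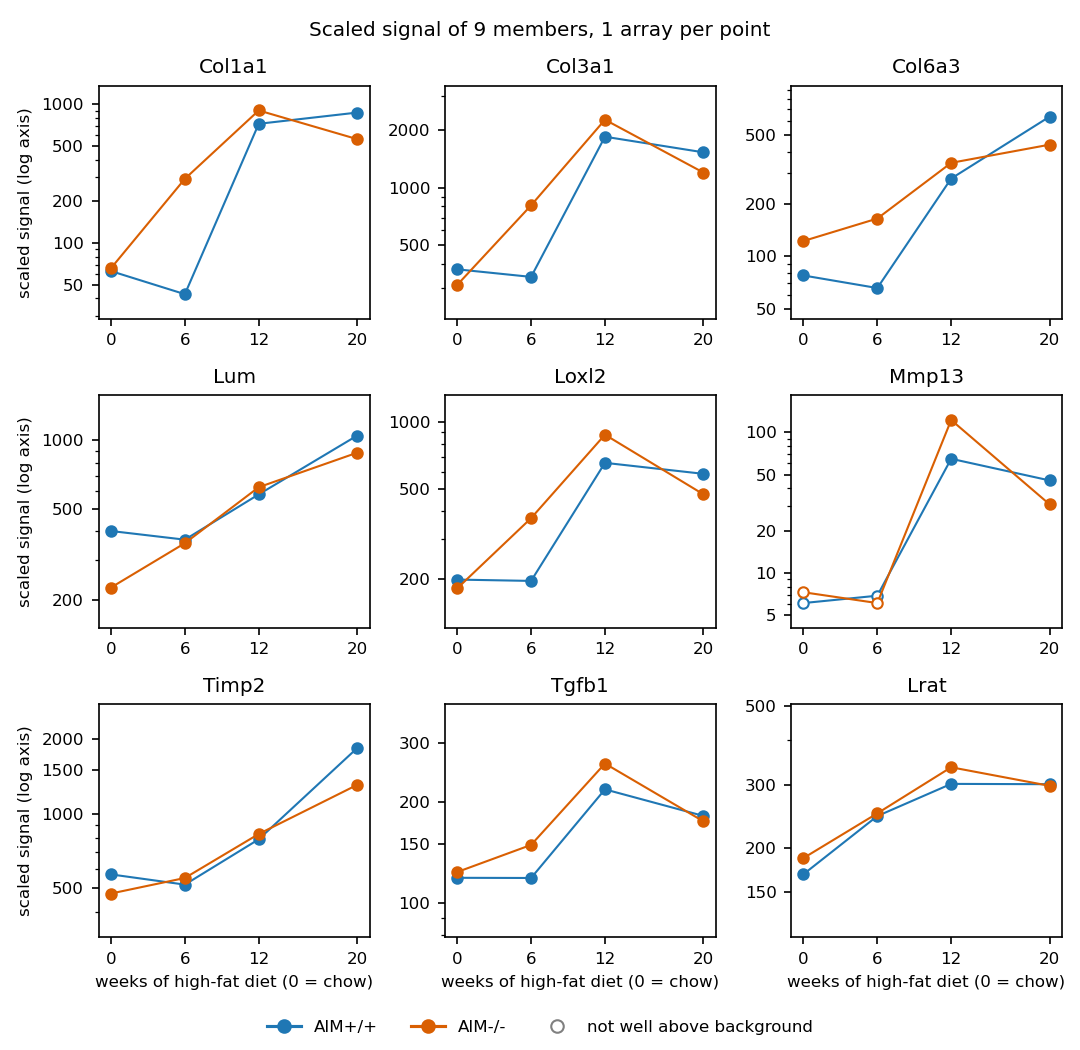
Scaled signals on a log axis are plotted against weeks of high-fat diet, with chow at 0, for 9 members and both genotypes, 1 array per point. Open points were not well above background. Col1a1, Col3a1 and Loxl2 show the knockout array at 6 weeks apart from the wild-type one, while Lrat was higher at 6 weeks than on chow in both genotypes.

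Collagen IV forms the sheets of basement membranes, and collagen VI forms beaded microfilaments around cells. Col6a3, the longest chain of collagen VI, gave 77.5, 65.6, 280.1 and 637 in the wild type and 122, 165, 345 and 439 in the knockout. Col6a1 gave 48.2, 33.6, 96.7 and 156 in the wild type and 55.7, 78.7, 89.5 and 144 in the knockout, and only the wild-type array at 6 weeks was not well above background. Col4a1 gave 295, 153, 497 and 429 in the wild type and 200.8, 310.2, 609 and 350.1 in the knockout. The collagen VI chains were highest at 20 weeks in both genotypes, and Col4a1 was highest at 12 weeks in both by the probe used. Another Col4a1 probe, well above background on all 8 arrays, gave 456 at 12 weeks and 466 at 20 weeks in the wild type. In the knockout that probe gave 576 and 374.

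Their log2 differences on the diet were 1.40 (SE 0.36, adjusted p = 0.101) for Col6a3, 0.79 (SE 0.30) for Col6a1 and 0.51 (SE 0.15) for Col6a2, which ranged from 29.9 to 66.3. Col4a1 had 0.56 (SE 0.33) and its partner Col4a2 0.29 (SE 0.23), with Col4a2 signals from 205 to 396. None of these 5 chains passed the threshold. Col4a1 and Col4a2 lie on opposite strands of chromosome 8, with starts 21 bases apart in RefSeq (GRCm38.p6). The Col4a1 start is at 11312826 on the - strand and that of Col4a2 at 11312805 on the + strand, so their first bases overlap.

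Small leucine-rich proteoglycans bind collagen fibres and shape them. Lum (lumican) gave 402, 368, 581 and 1049 in the wild type and 228, 355, 624 and 883 in the knockout, a diet difference of 0.97 (SE 0.20, adjusted p = 0.0744). Bgn (biglycan) gave 122, 133, 148 and 302 in the wild type and 124, 168, 130 and 250.1 in the knockout, with both 20-week arrays above all the others (difference 0.54, SE 0.15). Without the 20-week pair the Bgn difference was 0.23 (SE 0.17). Sparc, a calcium-binding glycoprotein of remodelled matrix, gave 1392, 958, 2859 and 2061 in the wild type and 1300, 1824, 3106 and 2133 in the knockout. Sparc was thus highest at 12 weeks in both genotypes, and its difference of 0.59 had an SE of 0.23.

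The abundant proteoglycan Dcn (decorin) ranged from 14503 to 26024, with 0.31 (SE 0.13) on the diet. Fn1, plasma and tissue fibronectin, which hepatocytes also make, ranged from 1887 to 3673 and had its lowest signals of the 8 at 12 weeks, 2179 and 1887. Of 3 dimmer Fn1 probes, all well above background throughout, 2 had their lowest signals at 12 weeks in both genotypes, and the other, of a different transcript record, gave 1012.5 and 1272 there within a range of 886 to 1990.5. Between 12 and 6 weeks its difference was -0.82 (SE 0.15, adjusted p = 0.136), and the only other negative one was that of Bgn, -0.11 (SE 0.19).

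Lysyl oxidases join collagen chains by oxidising lysine side chains. Loxl2 gave 198, 195, 657 and 587 in the wild type and 181, 372, 878 and 475 in the knockout, with a diet difference of 1.33 (SE 0.27, adjusted p = 0.0701). All 4 arrays at 12 and 20 weeks lay above the other 4. Loxl1 was not well above background on chow (24.6 and 18.1) or on the wild-type array at 6 weeks (12.1), and gave 40.5 and 182 on the later wild-type arrays and 37.4, 58.0 and 81.8 on the 3 knockout diet arrays. It was at least 4.003-fold higher at 20 weeks than on chow. Lox itself was well above background on 2 arrays only, the wild type at 12 weeks, 106, and the knockout at 20 weeks, 139, and lay between 5.7 and 11.3 on the other 6.

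Of the matrix metalloproteinases, the collagenase Mmp13, which cuts fibrillar collagen in rodents, was well above background at 12 and 20 weeks and at no other time. Its signals were 6.1, 6.9, 64.8 and 45.4 in the wild type and 7.3, 6.1, 122 and 30.7 in the knockout. Mmp13 was at least 2.92-fold higher at 12 weeks than on chow, at least 3.04-fold higher at 12 weeks than at 6 weeks and at least 1.22-fold higher at 20 weeks than on chow. The test between 12 and 6 weeks (adjusted p = 0.0748) set arrays through which Mmp13 entered against background values, and it did not test that bound. For the mean of all diet times its adjusted p was 0.0479. That test sets background values on chow against a mean that includes background values at 6 weeks, and the bound on the fold was under 1, so no size is given. Without the 20-week pair its adjusted p was 0.109. The probe lies on chromosome 9 at 7282762 to 7282821.

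Mmp2, the gelatinase of fibroblasts, was well above background on 3 arrays, with 34.5 and 78.2 on the later wild-type arrays and 67.2 on the last knockout array, and lay between 7.6 and 29.0 on the other 5. It was at least 2.38-fold higher at 20 weeks than on chow. Mmp14, a membrane-bound activator of pro-Mmp2, gave 1265, 1032, 1376 and 1489 in the wild type and 1192, 1376, 1733 and 1347 in the knockout, a diet difference of 0.16 (SE 0.16).

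Promoters are shown for 3 members that were highest at 12 or 20 weeks and whose starts hold motifs of factors known to act on matrix genes. AP-1 is the factor of the collagenase promoters, SMAD proteins carry the TGF-beta signal to collagen genes, and a TATA box sets the start of many strongly induced genes. RefSeq (GRCm38.p6) gave promoters, 250 bases before to 50 after a start, for 22 of the 35 genes. Below are the 120 bases before each start, 5′ to 3′ on the gene's strand, with AP-1, SMAD core and TATA matches in capitals.
Mmp13, chr9:7272394-7272513, + strand: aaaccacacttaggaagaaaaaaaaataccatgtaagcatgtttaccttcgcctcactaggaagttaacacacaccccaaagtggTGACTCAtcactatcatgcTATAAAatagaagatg
Col6a1, chr10:76726045-76726164, - strand: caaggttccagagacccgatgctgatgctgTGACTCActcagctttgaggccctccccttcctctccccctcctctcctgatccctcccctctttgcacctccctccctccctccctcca
Col3a1, chr1:45311418-45311537, + strand: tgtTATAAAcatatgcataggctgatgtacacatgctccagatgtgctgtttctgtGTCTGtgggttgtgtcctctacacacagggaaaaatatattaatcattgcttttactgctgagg

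The AP-1 motif TGANTCA, searched on both strands, was found in 2 of the 22, at -35 from the start in Mmp13 and at -90 in Col6a1, against 7.81% of 32851 promoters of the same length. The SMAD core CAGAC, on both strands, was in 11, among them Col1a2, Col3a1 and Col5a1, against 49.6% of all. TATAAA on the gene's strand was in 3, at -16 in Mmp13, -117 in Col3a1 and -31 in Tgfb2, against 8.32%. These are matches to the letters at differing distances from the start. The TEAD motif GGAATG, on both strands, was in 5 against 14.7%, and the CArG box, the site of serum response factor, in none against 1.63%. A match is a description of these letters and not of binding.

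The TIMPs bind the active site of metalloproteinases. Timp2 gave 569, 518, 789 and 1846 in the wild type and 477, 551, 829.5 and 1310.4 in the knockout, so that each later pair lay above the one before it from 6 weeks on. Its log2 difference was 0.75 (SE 0.16, adjusted p = 0.0749) on the diet and 1.54 (SE 0.19, adjusted p = 0.0807) between 20 and 6 weeks. Without the 20-week pair the diet value was 0.34 (SE 0.15). Timp1 gave 819, 793, 1034 and 913 in the wild type and 900.5, 659.7, 1227 and 823 in the knockout, with a diet difference of 0.05 (SE 0.14), and both of its 12-week arrays lay above the other 6. The dimmer Timp1 probe ranged from 6.6 to 46.9 and was well above background on 5 arrays.

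Among the growth factors, Tgfb1, the main activator of stellate cells, gave 119, 118.5, 218 and 181 in the wild type and 123, 149, 259.8 and 175 in the knockout. Its diet difference was 0.55 (SE 0.12, adjusted p = 0.0819), and the 12-week arrays were the highest in both genotypes. Tgfb3 gave 58.7, 35.5, 56.1 and 185 in the wild type and 36.6, 50.05, 106 and 107 in the knockout, with 35.5 and 36.6 not well above background (difference 0.73, SE 0.39). Tgfb2 was well above background on 3 arrays, at 195 on wild-type chow, 109 on the 12-week wild-type array and 43.1 on the 6-week knockout array, and lay between 9.9 and 24.6 on the other 5. These 3 arrays shared neither genotype nor time.

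Ccn2 (connective tissue growth factor), a matricellular target of TGF-beta, gave 278, 163, 294 and 1996 in the wild type and 545, 141, 797 and 668 in the knockout. The 6-week arrays were the lowest in both genotypes. The wild type at 20 weeks was 2.99-fold above the knockout, while at 12 weeks the knockout was 2.71-fold above the wild type. The diet difference of 0.17 had an SE of 0.61. Without the 20-week pair the Ccn2 difference was -0.52 (SE 0.38).

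The receptor genes for platelet-derived growth factor, which drives the division of stellate cells, both had positive diet differences. Pdgfrb gave 290.3, 213, 428 and 637 in the wild type and 295, 325, 549 and 548 in the knockout, a difference of 0.53 (SE 0.19). Pdgfra was not well above background on chow (25.6 and 19.9) or on the wild-type array at 6 weeks (25.4), and gave 35.2 and 76.0 on the later wild-type arrays and 31.0, 42.4 and 55.2 on the 3 knockout diet arrays. At 20 weeks Pdgfra was at least 2.12-fold higher than on chow.

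Acta2 (alpha smooth muscle actin) and Tagln (transgelin) are the contractile proteins by which myofibroblasts are usually recognised, and here the values depended on the probe. By the rule that the brightest probe stands for a gene, Acta2 gave 1247, 1197, 1401 and 1208 in the wild type and 1085, 1469, 1485 and 1205 in the knockout, a diet difference of 0.18 (SE 0.13). A dimmer probe of the same transcript gave 49.7, 42.9, 184.5 and 269 in the wild type and 47.7, 80.7, 247 and 335 in the knockout, well above background on all 8 arrays. In a fit of all probes its difference was 1.68 (SE 0.20, adjusted p = 0.0428). The brightest probe shows overlapping groups, and the dimmer one shows all 4 arrays at 12 and 20 weeks above all 4 others. A further Acta2 probe, of another transcript, was well above background on both wild-type arrays at chow and 20 weeks, at 90.1 and 101, and on no other.

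The Tagln probes differed likewise. Its brightest probe gave 4950.4, 4664, 3915 and 3562 in the wild type and 3830.1, 3224, 5378 and 4018 in the knockout, with a diet difference of -0.10 (SE 0.23). The dimmer one gave 47.8, 27.1, 104 and 157 in the wild type and 29.4, 62.1, 116 and 146 in the knockout, with 27.1 and 29.4 not well above background, and its difference was 1.23 (SE 0.36, adjusted p = 0.136) in the fit of all probes. The dimmer Tagln probe lies at 45681828 to 45681887 on chromosome 9 and the brightest at 45681009 to 45681068. On chromosome 19 the dimmer Acta2 probe lies at 34307567 to 34307626, and the brightest is mapped across 34314502 to 34317756. Which probe reads the gene was not tested.

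**Figure D3:**
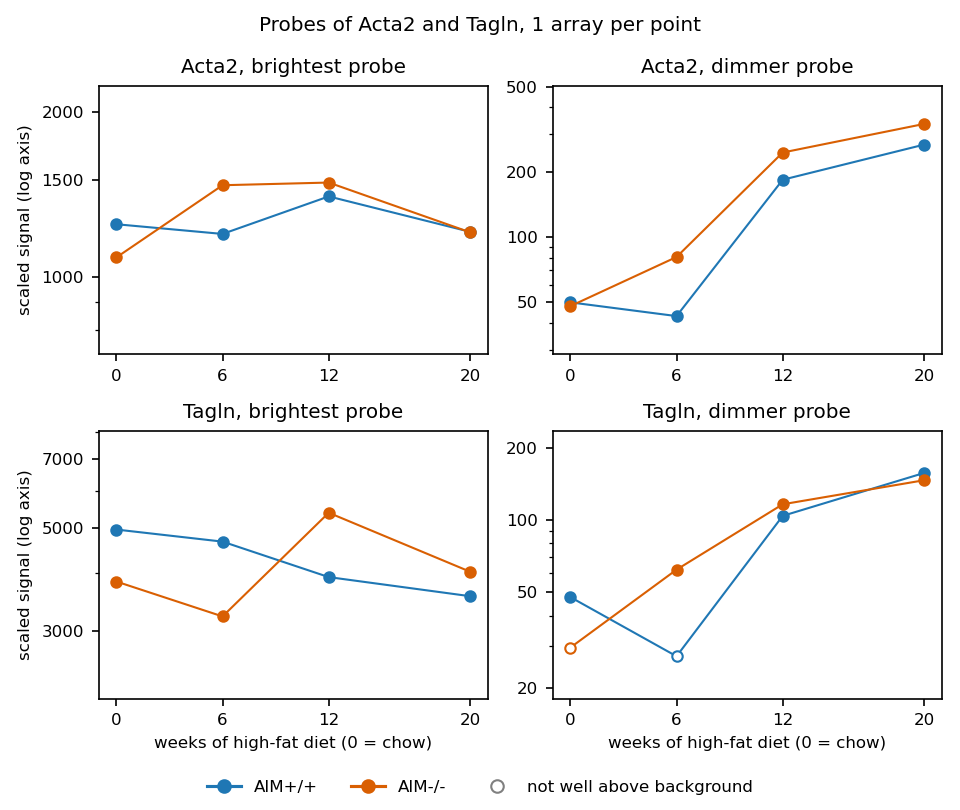
Scaled signals on a log axis of the brightest and of a dimmer probe of Acta2 and Tagln are plotted against weeks of high-fat diet, with chow at 0, 1 array per point, and open points not well above background. The brightest probes show no common course, while both dimmer probes are higher at 12 and 20 weeks than on chow and at 6 weeks in both genotypes.

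Markers of resting stellate cells had positive diet differences, 3 of 3. Lrat, the enzyme that esterifies retinol for storage, gave 169, 245.5, 302 and 302 in the wild type and 187, 249.8, 336 and 298 in the knockout. Each of the 6 diet arrays lay above both chow arrays. Lrat rose by 0.69 (SE 0.10, adjusted p = 0.0485), and another Lrat probe showed the same direction. Without the 20-week pair the value was 0.66 (SE 0.12, adjusted p = 0.137). Lrat lies on chromosome 3 with its probe at 82981614 to 82981673, 4.48 Mb from Cd5l, and its genotype difference was 0.08 (SE 0.09).

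Des (desmin), the intermediate filament of rodent stellate cells, gave 39.7, 38.7, 51.9 and 74.6 in the wild type and 40.8, 47.7, 46.8 and 74.0 in the knockout, with both 20-week arrays above the rest and a diet difference of 0.42 (SE 0.13). Reln (reelin), a secreted glycoprotein of stellate cells, gave 1089, 931.5, 1166 and 1440.1 in the wild type and 1030.0, 1090.1, 1180 and 1388 in the knockout. Reln too was highest on the 20-week arrays, with 0.16 (SE 0.11). Without the 20-week pair the diet differences were 0.19 (SE 0.15) for Des and 0.04 (SE 0.14) for Reln.

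Between 6 and 12 weeks, a step that does not involve the 20-week pair, 32 of 34 members had positive differences, with a median of 0.85 against -0.05 over all genes (0.69 with bounds). No member and no gene on the array passed (0% of all genes), and 18 members had an unadjusted p under 0.05, against 17.8% of all genes. Both 12-week arrays lay above both 6-week arrays for 28 members, against 22.8% of all genes. Col1a1 had 2.86 (SE 0.81), Col3a1 1.96 (SE 0.42), Col1a2 1.63 (SE 0.40), Loxl2 1.49 (SE 0.33), Sparc 1.17 (SE 0.28) and Tgfb1 0.84 (SE 0.15). Left without the wild-type array at 6 weeks, the median was 0.54, and without the knockout array at 6 weeks it was 1.18.

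Between 6 and 20 weeks 31 of 34 differences were positive, with a median of 1.002 against -0.04 over all genes (0.81 with bounds). No member passed, where 0.12% of all genes did, and 23 had an unadjusted p under 0.05, against 16% of all genes. Ccn2 had 2.93 (SE 0.74), Col1a1 2.65 (SE 0.81), Col6a3 2.35 (SE 0.44) and Lum 1.41 (SE 0.25). Both 20-week arrays lay above both 12-week arrays for 13 members, against 27.3% of all genes, namely the 3 collagen VI chains, Timp2, Tgfb3, Des, Reln, Loxl1, Mmp2, Pdgfra, Lum, Bgn and Fn1. Col1a1, Col1a2 and Col3a1 were not among them.

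Within a genotype, each diet array can be set against its own chow array, with no replicate and so no test. At 6 weeks 28 of 34 members were below chow in the wild type (45.8% of all genes), with a median of -0.15, while in the knockout 29 were above chow, with a median of 0.43. Members and all genes were counted on the signals as measured, background values included, and bounds are given where 1 array was at background. No signal was at least 2-fold higher in the wild type at 6 weeks (3.84% of all genes), and 4 were in the knockout (5.63%). Of these, Col1a1, Col3a1 and Loxl2 were well above background on both arrays, and the bound for Loxl1 was 1.13-fold. At least 2-fold lower at 6 weeks were Tgfb2 in the wild type (3.06%) and Ccn2 in the knockout (3.88%). At 12 weeks 11 signals were at least 2-fold above chow in the wild type (7.99%) and 14 in the knockout (10.5%), and none was below (4.94% and 5.75%). With bounds in place of background values, 10 and 12 reached 2-fold, without Col5a2 in the wild type and without Loxl1 and Pdgfra in the knockout. At 20 weeks 18 signals were above in the wild type (9.69%) and 15 in the knockout (8.52%), with medians of 1.20 and 0.93. With bounds 16 and 13 did so, without Mmp13 in both genotypes, Col5a2 in the wild type and Pdgfra in the knockout. Tgfb2 was at least 2-fold below chow in the wild type at that time (4.88%), and no member was in the knockout (3.93%). The chow array of a genotype is shared by its 3 comparisons.

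**Figure D4:**
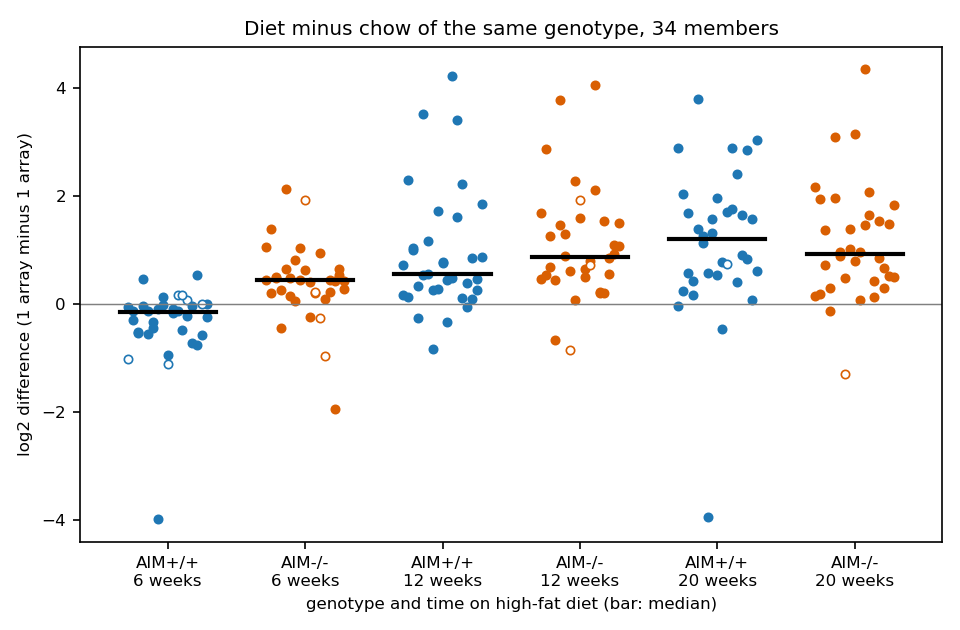
Each point is the log2 difference of 1 of the 34 members between 1 diet array and the chow array of the same genotype, with bars at the medians and open points where neither array was well above background. The wild type at 6 weeks is the only column with its median below 0, at -0.15.

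The comparison of genotypes asked whether the matrix response differs when AIM is absent. Over the 4 times no member passed, where 0.0334% of all genes did, and none had an unadjusted p under 0.05, against 5.58% of all genes. Differences, knockout minus wild type, were positive for 21 of 34 with a median of 0.06, against 0.00 over all genes. Without the 6-week pair the median was -0.04 with 14 positive, and without the 20-week pair it was 0.10 with 24 positive. Col1a1 had 0.63 (SE 0.58), Col3a1 0.23 (SE 0.30) and Loxl2 0.23 (SE 0.23). No member had all 4 knockout arrays above all 4 wild-type arrays, against 0.647% of all genes, and none had the reverse, against 1.63%.

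The sign of the members' median was not the same at each time. At 6 weeks the knockout was above the wild type for 27 of 34 members (44.2% of all genes), with a median of 0.37, and at 20 weeks it was below for 30 of 34 (44.6%), with a median of -0.25. On chow 15 were above (51.7%) and at 12 weeks 23 (49.5%). For 16 members the knockout was above at 6 and 12 weeks and below at 20 weeks, as it was for 12.1% of all genes. Among them were Col1a1, Col3a1, Col4a1, Col6a3, Loxl2, Tgfb1 and Timp2.

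At 6 weeks the signals of 7 members were at least 2-fold higher in the knockout, where 3.03% of all genes were, and none was lower (3.5%). With bounds, 5 of the 7 reached 2-fold. Col1a1 was 6.77-fold higher, Col6a3 2.51-fold, Col3a1 2.36-fold and Col4a1 2.02-fold. The remaining 3 were not well above background on the wild-type array, so their folds are bounds: at least 2.35 for Col6a1, 1.44 for Tgfb2 and 1.25 for Loxl1. These values set 1 array against 1, and the knockout array is the one with the Xist signal of 155. On the same array Krt19, a keratin of bile ducts and mesothelium, was at 132 against 14.2 in the wild type, and the Kupffer cell gene Marco at 3260.5 against 5844.5. Of the other bile duct markers, Krt7, Epcam and Cldn7 were at background on both 6-week arrays, as were the mesothelial markers Msln and Gpm6a. The bile duct markers Sox9 (186 against 125), Spp1 (2053 against 704) and Krt23 (2408 against 803) were higher in the knockout. All 10 markers of liver endothelium were higher on the knockout array, among them Stab2 at 1140 against 816 and Vwf at 251 against 87.6. All 10 were also lower on the wild-type array at 6 weeks than on wild-type chow, with a median of -0.41. Cfd (adipsin), an adipose marker, gave 16532 on that wild-type array against 2336 on the knockout array and 36.8 to 791 on the other 6. The rest of the adipose list did not follow Cfd. On both 6-week arrays Adipoq, Lep, Plin1, Retn and Nnat were at background, between 6.1 and 18.6. Car3 gave 98986 in the wild type and 91751 in the knockout there. The part of these in the result was not tested.

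On chow the only member at least 2-fold apart was Tgfb2, at least 5.85-fold lower in the knockout (4.3% of all genes lower, 2.93% higher). At 12 weeks Ccn2 was higher (2.5%), and Tgfb2 and Lox were lower (1.96%), by at least 3.60-fold and at least 3.50-fold. At 20 weeks Lox was higher, by at least 5.97-fold (1.9%), and Loxl1 and Ccn2 were lower (2.13%), by 2.23-fold and 2.99-fold. Lox thus stood in opposite directions at 12 and 20 weeks, each time with 1 array of the pair at background.

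The test of whether the diet difference itself differed between genotypes gave no member past the threshold (0% of all genes) and none with an unadjusted p under 0.05, against 4.45% of all genes. The median difference of differences was 0.26, with 26 of 34 positive, and it was -0.12 without the wild-type array at 6 weeks. Its errors were wide: Col1a1 had 0.75 (SE 2.44), Col3a1 0.67 (SE 1.47) and Lrat -0.10 (SE 0.34).

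**Figure D5:**
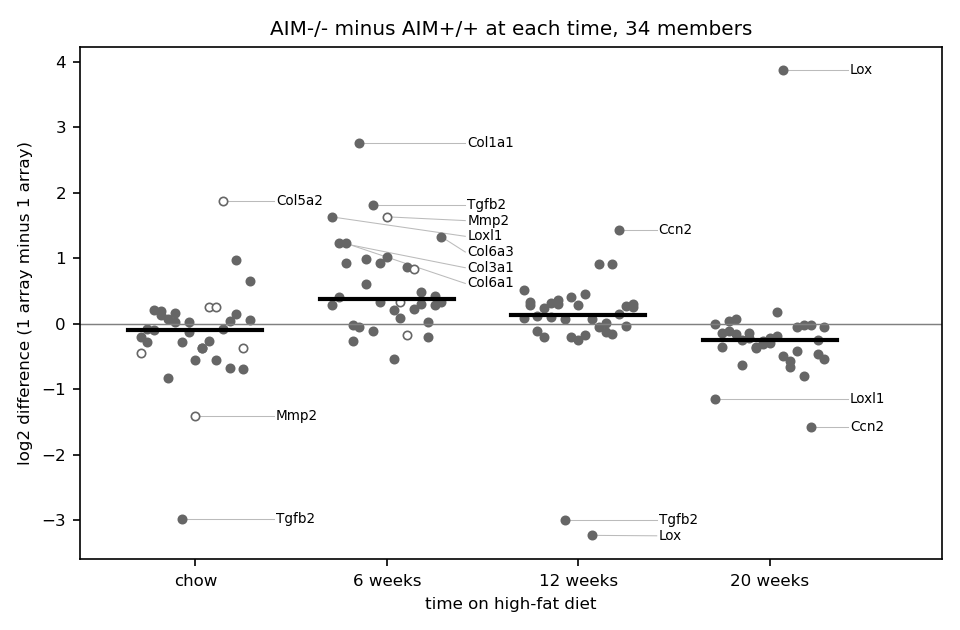
The log2 difference between the knockout and the wild-type array at each time is plotted for the 34 measured members, with bars at the medians and open points where neither array was well above background. Medians lie at -0.09 on chow, 0.37 at 6 weeks, 0.14 at 12 weeks and -0.25 at 20 weeks, and the members furthest from 0 are named.

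Other genes of matrix assembly gave few calls on the diet, and 2.57% of all genes were called. Of 36 other matrix glycoproteins, proteoglycans and crosslinkers, 26 were measured, 21 of them positive with a median of 0.61. In that list Efemp2 (fibulin-4), which brings lysyl oxidase to elastic fibres, rose by 0.90 (SE 0.14, adjusted p = 0.0493). Dpt (dermatopontin), which binds decorin and fibrillar collagen, also passed, but 5 of its 8 signals, both chow ones among them, were background. Between 20 and 6 weeks 1 gene of that list passed, Omd, which was lower at 20 weeks (-4.91, SE 0.36, adjusted p = 0.0407), where 0.12% of all genes passed. Of the collagen synthesis and folding genes, 19 of 23 were measured, 15 of them positive with a median of 0.23, and none passed; the collagen chaperone Serpinh1 had 0.99 (SE 0.21, adjusted p = 0.0776). Other collagens gave 7 of 12 measured positive with a median of 0.28, and other matrix proteases and inhibitors 13 of 16 with a median of 0.73, with none called in either.

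Of 28 measured genes of TGF-beta signalling and activation, 15 were positive with a median of 0.03, and 1 passed. That gene, Ltbp2, a latent TGF-beta binding protein family member, gave 29.4 and 23.4 on chow, not well above background, and 34.3 to 124 on the diet arrays (adjusted p = 0.0474). Of 22 measured genes of PDGF ligands, stellate activation and contraction, 19 were positive with a median of 0.61, and 3 rose: Spp1 (osteopontin) by 3.52 (SE 0.47), the galectin gene Lgals1 by 2.45 (SE 0.33) and the calcium-binding protein gene S100a6 by 1.60 (SE 0.21). Each of these had an adjusted p of 0.0454. Among 18 measured genes of vitamin A handling and stellate quiescence, 11 were positive with a median of 0.07 and none passed. Without the 20-week pair none of these passed.

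Markers of other cell types moved over the same arrays. Each list is given as the sum of its genes' signals in units of its array's 75th percentile. For markers of recruited macrophages, 6 of 8 measured, the sum was 9.33 to 11.95 on chow, 6.95 to 9.51 at 6 weeks, 18.2 to 28.85 at 12 weeks and 11.1 to 16.8 at 20 weeks. Ccr2, the receptor of inflammatory monocytes, was at background on chow and at 6 weeks. Its 12-week signals were 72.4 and 81.5, and its 20-week signals 37.4 and 32.1. For all 7 bile duct markers the sum was 4.15 to 10.45 on chow, 5.92 to 16.95 at 6 weeks, 44.7 to 106 at 12 weeks and 43.35 to 56.9 at 20 weeks. Most of the later sums came from Spp1, between 8040 and 27319 at 12 and 20 weeks, and Krt23, between 2408 and 3634. Without both, a split made after the values were seen, the other 5 markers summed to 0.981, 0.616, 0.905 and 3.58 in the wild type and to 1.41, 1.25, 1.82 and 2.27 in the knockout. Among them Epcam was well above background on both 20-week arrays alone, at 53.5 and 29.6.

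Portal fibroblast markers, 7 of 9 measured, summed to 2.95 to 3.15 on chow, 3.24 to 3.71 at 6 weeks, 5.88 to 9.80 at 12 weeks and 6.76 to 7.24 at 20 weeks. Dpt gave 180.0 and 119 and Mfap4, a microfibril protein, 115 and 103 on the 20-week arrays, against at most 32.2 and 33.0 on the others, while Gli1 was at background on all 8. Mesothelial markers, 3 of 7 measured, summed to 0.0791 to 0.562 up to 12 weeks and to 0.902 to 1.35 at 20 weeks, with Upk3b, Wt1, Lrrn4 and Upk1b at background on all 8. Smooth muscle markers, 8 of 8 measured and 2 of them members, summed to 28.6 to 37.3 on chow and 32.8 to 33.7 at 20 weeks. Myh11 and Cnn1 (calponin) were well above background on the 20-week arrays alone, Cnn1 at 39.2 and 80.9. Hepatocyte markers, all 9 measured, were all below chow in the mean of the diet times, with a median of -0.25. Among them Ass1 passed the threshold (-1.09, SE 0.15, adjusted p = 0.0454). Hepatocyte markers summed to 3390 to 3398 on chow, 2678 to 3438 at 6 weeks, 2408 to 2519 at 12 weeks and 2617 to 2631 at 20 weeks. At 6 weeks the wild-type sum, 3438, lay above that of wild-type chow, 3398. Endothelial markers, all 10 measured, summed to 35.7 to 41.4 on chow, 30.5 to 38.0 at 6 weeks, 46.4 to 54.4 at 12 weeks and 45.7 to 48.4 at 20 weeks. Kupffer cell markers, all 11 measured, summed to 74.2 to 80.0 on chow. At 20 weeks their sum was 115 in the wild type and 82.8 in the knockout. From chow to 20 weeks in the knockout, Marco went from 3534 to 809 and Timd4 from 209 to 42.6. Cd163 went from 488 to 125 and Vsig4 from 655 to 380 between the same arrays. The rest of that list was higher at 20 weeks than on chow in the knockout. Of 7 adipose markers 4 were measured, and Lep was at background on all 8. Their sum, nearly all Car3, which liver also makes, was 298 to 388 on chow and 118 to 181 at 20 weeks. The part of these cell types in the values of the members was not tested.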

How the data were processed

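Each of 8 liver RNA samples was hybridised to its own Agilent mouse array in 1 colour, per the labels. The deposited intensity per spot is the scanner software's processed signal. The submitters' processing notes name Feature Extraction 9.5 and the file headers version 9.5.3.1, array design 014868 and mm8 positions. The value table that the authors deposited holds log2 values, shown by comparison with the scanner files to be each array's log2 signal less its 75th percentile (99% of probes within 0.00213), and its column medians ran from -3.60 to -3.42.

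Here processed signals, without the 1639 control spots and 75 to 130 outlier spots per array, were averaged per probe. Their log2 values were centred by subtracting the array's 75th percentile. A RefSeq table (GRCm38.p6) gave current symbols for 24375 of 41174 probes, matched by accession. The other 16799 were matched by the file's gene name or a unique synonym, and kept that name where neither was found. Genes with a probe well above background on at least 2 arrays entered, 14986 in all, each by its brightest probe. limma 3.58.1 in R 4.3.3 (package data.table, version 1.17.8) fitted week as a factor of 4 levels plus genotype, with 3 residual degrees of freedom, and a model of 4 cells for the interaction. Adjusted p-values are Benjamini-Hochberg over all genes, threshold 0.05. Single arrays were compared by a 2-fold threshold without a test. "At least" marks a fold whose dim side never exceeded background, taken against the lowest signal that did or the probe's own where that was higher.

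Members, lists and tests were chosen with earlier results of these data known, so no list is independent support. Signals on every array are given for members past the threshold, for the 3 of each role with the largest diet difference and for Lrat, Reln and Des, and were added for Ccn2 after its values were seen. Apart from further Y chromosome genes, other list genes are named where they passed, where a marker list is checked or absent, or, like Serpinh1, after their values were seen. The fits were tested on simulated data. Alternatives were another background correction, quantile normalization, other filters on dim probes, the mean of a gene's probes, the deposited value table, and leaving out each array and each pair.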

Additional observations from a re-analysis of the deposited data

How the results depend on the processing

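With 1 array per group, the number of arrays sets the limit: each p rests on 3 residual degrees of freedom (4 for the interaction), and 10 of 34 members were not well above background on every array, so their sizes are partly bounds. Slide as a block could not be fitted, since each of the 2 slides holds 1 genotype. No paired analysis of animals was possible, because each group has 1 array and every label reads replicate 1. The week term already compares the genotypes within each of the 4 times.

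The members called for the diet, 2 as reported (2.57% of all genes called), numbered 6 with normexp background correction (4.7%; Col1a1, Col3a1, Col6a3, Lrat, Loxl2 and Lum), 1 with quantile normalization (2.03%; Mmp13), 0 with no filter on dim probes (0.109%), 6 among the 24 members well above background on all 8 arrays (7.32%), and 0 with the mean of a gene's probes (1.84%). They ranged from 0 to 8 when 1 array or 1 pair was left out, with 8 without the 6-week pair (3.91%) and 2 (Col1a1 and Col3a1) without the wild-type array at 6 weeks (1.14%). The share was 0.04% without the 12-week pair and 0% in the other leave-one-out fits. Positive differences numbered 32 or 33 of 34 under every processing alternative that kept all 34. The diet median was 0.37 with normexp and ranged from 0.40 to 0.93 when an array or pair was left out, both extremes being pairs, that of 20 and that of 6 weeks. The 12 minus 6 week median was 0.55 with normexp and 0.54 to 1.18 in the leave-one-out fits. For 20 minus 6 weeks it was 0.60 with normexp and 0.63 to 1.44, and 1 member, Timp2, passed with normexp and also 1, Timp2, among members well above background on all 8 arrays. Dropping the filter moved the median of all genes to -0.11 for diet, -0.18 for 20 minus 6 weeks and -0.16 for the interaction. The causes were not tested.

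For single arrays, members at least 2-fold apart by genotype at 6 weeks numbered 3 with normexp and 4 where both arrays had to be well above background, which also gave 0 on chow and 1 at 12 weeks. Against chow in either direction, normexp gave 7 at 12 weeks and 11 at 20 weeks for the wild type. For the knockout it gave 3 at 6 weeks, 9 at 12 weeks and 8 at 20 weeks. The rule on both arrays gave 0 in the wild type at 6 weeks and 9 in the knockout at 20 weeks, and the mean of probes gave 2 in the wild type at 6 weeks. The share of all genes was not counted for single arrays under these alternatives, so these counts cannot be set against it. No called member changed sign in the alternatives run. The diet differences without both chow arrays, the interaction without either chow array and the week contrasts without their own weeks could not be fitted.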
